A study of Mus musculus with 12 samples.

Results

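Mouse chromosome 11 was followed along its length in 11 malignant peripheral nerve sheath tumours (MPNSTs), using every array probe whose position in the scanner files lay on that chromosome. These were 2979 of the 42404 probes on the array, or 7.31% of the 40726 autosomal probes, and they ran from 3100146 to 121697849 (build mm9) with a median spacing of 17.0 kb. Of them, 2645 carried a gene or cDNA name and 334 did not, for 1557 names in all. Each of the 12 arrays compared DNA of cultured MPNST cells, labelled with Cy5, with DNA of wild-type, non-neoplastic Schwann cells labelled with Cy3. The dyes were never swapped, so an effect of the dye cannot be told apart from an effect of the tumour.

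All 11 tumours came from mice with a transgene that makes Schwann cells produce GGFβ3, an isoform of neuregulin-1. The strain background was C57BL/6J x SJL/J in 7 tumours (A202, A292, A382, A390, A394, A18 and 231 Trig, called mixed below) and C57BL/6J in 4 (B86, B91, B96 and B76). The reference cells are labelled wild-type C57BL/6J, and they were kept in forskolin and neuregulin while the tumour cultures were not. Passage numbers in the titles ran from 5 to 13 and were absent for 231 Trig. The age and sex of the mice were not used here. For A382 there were arrays of passages 8 and 9, whose mean stands for this tumour in every test.

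Chromosome 11 carries several genes of nerve sheath biology. Nf1 encodes neurofibromin, which switches off Ras, and its loss in Schwann cells underlies neurofibromas in neurofibromatosis type 1; Trp53 encodes the p53 tumour suppressor; Suz12 encodes a subunit of the Polycomb complex PRC2; and Nf2 encodes merlin. Erbb2 is the signalling partner through which Schwann cells receive neuregulin-1, and Pmp22 encodes a protein of compact peripheral myelin.

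On such an array a copy number change shows as a run of neighbouring probes that shift together, while a change at a single probe can also come from the probe's own sequence. The probes on which the results turn are given as deposited, with mm9 coordinates; the files do not give the strand of a probe, and whether a probe is exonic or intronic was not worked out, since no annotation of that build was used. The Trp53 probe lies in the stretch that was lower in A18. The AK155119 probes belong to the gene with the highest mean ratio on the chromosome; the pair shown overlap by the 27 bases shown in capitals, which places both in the direction of increasing coordinates. The probes of Tom1l1, Acyp2 and Cnrip1 split the tumours.
Trp53, chr11:69397121-69397180: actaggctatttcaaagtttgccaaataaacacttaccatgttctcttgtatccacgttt
AK155119, chr11:116615844-116615892: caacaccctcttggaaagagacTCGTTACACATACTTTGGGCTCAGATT
AK155119, chr11:116615866-116615925: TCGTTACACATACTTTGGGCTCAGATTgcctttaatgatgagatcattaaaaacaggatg
Tom1l1, chr11:90535960-90536019: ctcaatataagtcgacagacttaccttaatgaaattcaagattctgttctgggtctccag
Acyp2, chr11:30435608-30435667: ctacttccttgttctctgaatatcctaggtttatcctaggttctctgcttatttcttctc
Cnrip1, chr11:16961538-16961597: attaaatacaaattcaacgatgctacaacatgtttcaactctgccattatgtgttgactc

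Slide 1, with A18, A202, B86 and 231 Trig, went through a different scanner from slides 2 and 3, which hold the other 8 arrays. Faulty spots, 0.723% to 1.99% on slide 1 and 0.0604% to 0.107% on the other slides, were left out. On every array, both channels were well above background at 98.5% of the chromosome 11 probes (2935). The GC content of the probes had the same median, 36.7%, on chromosome 11 and elsewhere. Precision is limited by how few arrays there are.

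The first question was how far each DNA departs from the rest of the genome on chromosome 11. Each channel was taken apart, as the log2 signal minus the array's autosomal median after adjustment for probe GC content. The reference channel lay at -0.53 ± 0.03 (SD, n = 12 arrays), from -0.61 to -0.51, while the means of the other autosomes lay between -0.09 and 0.15. The reference was low on every array, and no array overlapped with the range of the other autosomes' means.

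The tumour channel had a mean chromosome 11 median of 0.15 ± 0.17 (SD, n = 11). It ran from -0.09 in B91 through a median of 0.13 to 0.45 in A202. A382 (0.35) and B76 (0.34) were the other tumours above 0.2, and B91 and A394 (-0.01) were the only tumours below 0. Flipping the signs of the 11 medians in every combination (exact permutation test, two-sided) gave p = 0.00977, adjusted p = 0.0206 over the 19 autosomes, of which 10 passed. Over the 12 arrays, the other autosomes had tumour channel means between -0.15 (chromosome 13) and 0.22 (chromosome 17). The reference channel, which holds no tumour DNA, was itself at 0.15 on chromosome 17. A test of 1 channel against 0 therefore does not by itself mark a gain. The adjusted p was 0.173 when slide 1 was left out. Chromosome 11 ranked first among the autosomes of the tumour channel in 1 tumour (A202) and among the first 3 in 4 tumours, and its lowest rank was 10, in B91. The mixed tumours had a mean of 0.17 ± 0.17 (SD, n = 7) and the C57BL/6J tumours 0.10 ± 0.18 (SD, n = 4), a difference of 0.07 with p = 0.509 (exact permutation test, two-sided, all 330 splits; adjusted p = 0.740).

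The low reference level ran along the whole chromosome. In 25 windows of 5 Mb its mean was below 0 in 25, on all 12 arrays in each, and below -0.3 in 24. The lowest window was 10 to 15 Mb, at -1.14 ± 0.18 (SD, n = 12 arrays), and the highest was 120 to 125 Mb, at -0.15 ± 0.06. The tumour channel had its lowest and highest values in the same windows, -0.51 ± 0.19 and 0.36 ± 0.16 (SD, n = 11). The SD between window means was 0.20 in the reference and 0.19 in the tumour channel, against 0.06 for the deviation of the ratio.

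For what follows, each probe's log2 ratio was taken relative to the median of chromosome 11 in the same tumour, called its deviation, which removes the shift of the whole chromosome. A window, gene or probe was called when limma gave a Benjamini-Hochberg adjusted p under 0.05 over all autosomal features and the mean over tumours was at least 0.2 in absolute log2. Every array carries Schwann cell reference DNA, and the labels do not say whether it was 1 pool or of how many animals; its spread is not separated in these tests, and the p-values reflect how much these arrays vary.

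No window of chromosome 11 moved by 0.2 over the tumours. The limma test called 0 of 25 windows, against 0.201% of the 497 windows of all autosomes, although 16 windows had an adjusted p under 0.05 (10 higher and 6 lower, all below the size threshold) and 19 had an unadjusted p under 0.05; across the autosomes 50.1% of windows had such an adjusted p. The highest mean was 0.16 ± 0.09 (SD, n = 11, limma adjusted p 0.00036) at 10 to 15 Mb, a window of 25 probes, and the lowest was -0.16 ± 0.05 (limma adjusted p 2.04e-05) at 120 to 125 Mb. In the latter, all 11 tumours were below 0, from -0.24 in A382 to -0.09 in A18. The window at 115 to 120 Mb was also below 0 in 11 of 11 tumours, with a mean of -0.07 ± 0.03, and the one at 110 to 115 Mb was above 0 in 10 of 11, with a mean of 0.07 ± 0.04.

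The size of these gentle slopes moved with the scanner. At 10 to 15 Mb the 4 tumours of slide 1 lay between -0.01 and 0.13 and the other 7 between 0.17 and 0.26, with no overlap, and without slide 1 this window had a mean of 0.22 and was called. At 120 to 125 Mb slide 1 lay between -0.11 and -0.09 and the others between -0.24 and -0.14. The scanners did not overlap in 4 of the 25 windows. Scanner and tumour cannot be told apart, since each tumour was read on 1 scanner.

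Of the 275 tumour and window pairs, 9 lay 0.2 or more from the chromosome median, or 3.27%, against 1.52% on the other autosomes. The share was higher on chromosomes 14 (6.06%), 10 (3.85%) and 15 (3.46%). Most of the pairs on chromosome 11 were in the window at 10 to 15 Mb, in tumours of slides 2 and 3. The largest single departure was A18 at 65 to 70 Mb, at -0.29, where the other 10 tumours lay between -0.02 and 0.03. No window was called between the strain backgrounds (0 of 25, background 0.0% of 497). There the smallest limma adjusted p on the chromosome was 0.694, the largest difference was 0.06, and 1 window had an unadjusted p under 0.05.

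A second question was where single tumours break. Each tumour's deviations were divided into segments of at least 5 probes by least squares with a cost of 40 noise variances for every break. The spread between neighbouring probes was 0.24 to 0.32 log2. This gave 26 breaks, from 1 in B76 to 4 in A18 and B91. Most were the same in nearly every tumour: 10 of 11 had a short segment at AK155119, followed by a last segment that ran to the end of the chromosome with a mean of -0.06 (231 Trig) to -0.18 (A382). The remaining tumour, B76, had its only break at 120060766, with a last segment of 93 probes at -0.27. B91 also had a raised segment of 389 probes from 6551118 to 43163803, with a mean of 0.17, and B96 a small step at 68397044, from 0.07 to -0.02.

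On average 0.70% ± 1.18 of the chromosome's probes (SD, n = 11) lay in segments with a mean of 0.2 or more from the median. A18 stood at 3.04% and B76 at 3.12%, while the other 9 tumours lay between 0.168% and 0.172%, which is the AK155119 segment alone.

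Since the same breaks recurred in nearly every tumour, each array was also set against the median of the other tumours read on the same scanner, a comparison added after the data were seen. This lowered the spread between neighbouring probes to 0.15 to 0.16 on slide 1 and 0.07 to 0.12 on the others. Breaks fell from 26 to 6, in 4 of the 12 profiles: 2 in A18, 2 in A382 at passage 9, and 1 each in B91 and B96. The tumour channel alone gave 9 breaks in 5 profiles, and the reference channel 4 breaks in 2 profiles.

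The break in B91 divided a proximal part at 0.03 from a distal part at -0.00, at 69604133 in Chrnb1. In B96 the same small step, 0.03 to -0.00, fell at 59275715. No profile of 231 Trig, B86, A202, A390, A292, B76 or A394 had a break in the ratio. In A18 both channels dipped near Recql5, a DNA helicase gene: the tumour channel was at -0.55 over 7 probes from 115748638 and the reference channel at -0.90 over 5 probes from 115752920, and the ratio had no break there. In 231 Trig, also on slide 1, the reference channel was raised there, at 0.65 over 5 probes from 115762506. With 1 array per tumour, these segments carry no test.

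The largest departure of a single tumour was a lower signal in A18 at chr11:68801338-70129155, a stretch of 1328 kb with 91 probes and 55 named genes that holds Trp53. The limits of the stretch were set from the ratio of A18 relative to the other tumours of slide 1. Counts of probes and genes below 0, and the lack of overlap in the ratio, therefore follow in part from that choice. On that scale, A18 had a mean of -0.45 over these probes, with 89 of 91 below 0. The 91 probes before the stretch had a mean of 0.02 and the 91 after it 0.01, with 87 of these 182 below 0. The other 10 tumours had values of -0.03 to 0.09 over the same probes, so A18 did not overlap with any of them.

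The channels differed in this step. In the tumour channel A18 lay at -0.54 over the stretch, against -0.07 in the probes before and -0.05 in those after, and the other tumours lay between -0.10 and 0.11. In the reference channel of the same array the segmentation found no break there, and the mean was -0.12. Against the array's autosomal median, and not the chromosome's own, the tumour channel of A18 was at -0.35 in the stretch and 0.14 on the whole chromosome, while the other 10 tumours were between -0.04 (B86) and 0.49 (A202) in the stretch.

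The Trp53 probe showed the same step. Its deviation was -0.32 in A18 and lay between 0.22 (B86) and 0.47 (B96) in the other 10 tumours, with a median of 0.36 in these. A18 was the only tumour below 0 and did not overlap with the rest. The mean over all tumours was 0.30 ± 0.22 (SD, n = 11, limma adjusted p 0.000554), which passed as higher. AK084182, a cDNA name carried by 7 probes between 69393563 and 69923335, was at -0.42 in A18 and between -0.13 and 0.11 in the others.

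Named genes at the edges of the stretch were AK172938 at its start, which has 1 of its 3 probes outside, and Alox12e, a lipoxygenase gene, at its end. Relative to the other tumours of slide 1, the profile that set the stretch, 53 of the 55 genes were below 0 and 49 were at -0.2 or lower. In 47 of 55 genes the deviation of A18 was lower than that of every other tumour. Polr2a, which encodes the largest subunit of RNA polymerase II, was at -0.60 on that scale over 2 probes, and Chd3, which encodes a chromatin remodeller, at -0.51 over 4. Dnah2, an axonemal dynein, was at -0.59 over 6 probes. The genes above 0 were AK019090 (0.09) and Eif5a (0.22), with 1 probe each.

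A292 had a shallow dip inside the same stretch. In the tumour channel alone, relative to the other tumours of its scanner, a segment of 51 probes from Dnah2 (69250064) to Dlg4 (69859036) had a mean of -0.07, against 0.00 before it and -0.01 after it. The ratio of A292 had no break there, and its mean over the whole A18 stretch was -0.03 in the ratio.

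Tumour A382 was hybridised at 2 passages, which gives the size of differences within a tumour. The passage 9 array, relative to the other tumours of its scanner, divided at 59275715, between Jmjd4 and Zfp867, into a proximal part of 940 probes at -0.08 and a distal part at 0.02, with a further small step to -0.03 at 113536352 in Fam104a. The passage 8 array had no break. Passage 9 minus passage 8, centred on its median, was -0.04 over the proximal probes and 0.03 over the 2039 distal ones, a step of 0.07. The step was 0.08 in the tumour channel and 0.00 in the reference channel. The dividing point was the break found in the passage 9 array, so the steps in the ratio and tumour channel follow in part from that choice.

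The difference between the passages was below 0 in 12 of 12 windows before 60 Mb and above 0 in 12 of 13 windows after it. These counts are split near the same break and are not separate support for it. Its largest window value was -0.08. Differences of 0.05 or more were found in 16.0% of the chromosome's windows and in 6.99% of the 472 windows of the other autosomes. The SD of this difference over windows was 0.04, the third highest of 19 autosomes, whose other values ran from 0.01 to 0.08. With 1 array per passage, on different slides, passage and slide cannot be told apart.

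The proximal part was higher than the distal part in the ratio of 11 of 12 arrays, by 0.00 (A202) to 0.10 (B91), and lower only in A382 at passage 9, by -0.01. Relative to the other tumours of the same scanner, the step of the tumour channel was -0.10 in A382 at passage 9, -0.02 at passage 8 and between -0.02 and 0.03 in the other tumours. Here too the parts were divided at the break of the passage 9 array.

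Single probes departed from the chromosome median far more often than windows did. Of 2978 probes tested, limma called 1334, or 44.8%, against 29.2% of the 40715 autosomal probes. Of these 668 were higher (22.4%, background 13.9%) and 666 lower (22.4%, background 15.3%). The calls were scattered: no more than 7 neighbouring probes were called in the same direction, and 92 of the 805 genes with several probes (11.4%) had probes called in opposite directions. When each probe was replaced by the running median of 5, 523 were called.

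The probes of chromosome 11 were spread more widely around their own median than those of the other autosomes. The robust SD of the deviations was 0.30 ± 0.02 on chromosome 11 and 0.22 ± 0.02 on the other autosomes (SD, n = 11 tumours), a difference of 0.08 that was above 0 in 11 of 11 tumours (exact permutation test by sign flips, two-sided, p = 0.000977, the smallest it can give). This test was chosen after the spread was seen. Every ratio uses Schwann cell reference DNA, so the differences of the 11 tumours may not be independent. Chromosome 11 was the widest autosome in 10 of 11 tumours. After averaging over the tumours it was 0.26, against 0.17 to 0.20 on the other autosomes. In the reference channel the same measure was 0.842 on chromosome 11, against 0.687 to 0.802 on the others. In the tumour channel it was 0.796, against 0.704 to 0.794. The part of each channel in the wider spread was not tested. In the C57BL/6J tumours alone the difference in the ratio was 0.08, where 4 tumours cannot give a p below 0.125.

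Brightness moved with these calls. Autosomal probes were divided by brightness into 5 equal groups. In the brightest, 46.8% of those on chromosome 11 were called lower and 4.93% higher, with a median deviation of -0.18; on the other autosomes these were 15.1%, 9.64% and -0.02. In the dimmest, 20.5% were called lower and 26.1% higher on chromosome 11, and 20.4% and 12.5% elsewhere. The robust SD was higher on chromosome 11 in all 5 groups, between 0.22 and 0.29 against 0.17 to 0.21. The part of brightness in the calls was not tested. The median reference channel level, relative to the chromosome, was -0.32 in the probes called higher and 0.42 in those called lower, while the tumour channel was near 0 in both (-0.03 and -0.00). The calls were made on the ratio, which holds the reference, so this difference follows in part from that choice. In the last window, 120 to 125 Mb, 46.4% of probes were called lower and 9.28% higher.

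Most core genes of nerve sheath tumours lay close to the chromosome median as means of their probes, though probes of the same gene could differ. Nf1, with 4 probes from 79315019 to 79384724, had a mean deviation of -0.05 ± 0.06 (SD, n = 11, limma adjusted p 0.0462), below the size threshold, from -0.16 in 231 Trig to 0.03 in A292; its probes ranged from -0.83 to 0.59. Suz12 (79833221, 1 probe) had a mean of -0.04 ± 0.07 and lay between -0.13 (B96) and 0.09 (231 Trig). Nf2 (4672316 to 4694923, 2 probes) had a mean of 0.10 ± 0.17 and ran from -0.17 in B91 to 0.44 in A394. The Nf2 probes were at -0.05 and 0.26. None of these genes was called.

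The receptor genes did not pass either. Egfr (16707588 to 16759063, 2 probes) had a mean of -0.00 ± 0.15 (limma adjusted p 0.987), with its lowest value in A18 (-0.25) and its highest in B91 (0.17). The scanners did not overlap there: slide 1 lay between -0.25 and -0.09 and the other 7 tumours between -0.04 and 0.17, with a mean of 0.09 without slide 1. Erbb2 (98278148 to 98294323, 2 probes) had a mean of -0.19 ± 0.08 (limma adjusted p 2.24e-05), just inside the size threshold, and was below 0 in 11 of 11 tumours, from -0.31 in B76 to -0.01 in A18. Slide 1 lay above the other tumours, and without it the mean was -0.24 and was called. Brca1, a DNA repair gene, had a mean of 0.05 ± 0.08, with slide 1 below the others and a mean of 0.10 without it. Its 2 probes were at -0.13 and 0.24. Top2a, which encodes the topoisomerase of dividing cells, had a mean of -0.02 ± 0.15, with slide 1 between -0.29 and -0.14, the other tumours between 0.00 and 0.21, and a mean of 0.07 without slide 1. The 2 Top2a probes went in opposite directions, at -0.34 and 0.29. In 1 of 18 alternatives Top2a was called lower, at -0.36. Pmp22 (62953643 to 62972109, 3 probes) was called lower, at -0.24 ± 0.07 (limma adjusted p 8.85e-07), in 11 of 11 tumours, from -0.37 in A382 to -0.16 in B91; its probes ranged from -0.48 to -0.07. In 1 of 18 alternatives the Pmp22 mean was -0.18, under the size threshold.

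Over all genes, limma called 578 of 1556 on chromosome 11, or 37.1%, against 22.9% of 19977 autosomal genes: 252 were higher (16.2%, background 9.97%) and 326 lower, against 2588 of the 19977 autosomal genes. The median over all chromosome 11 genes was -0.03 and over all autosomal genes -0.01. The gene lists below were chosen with earlier results of these data known, and each list is described by its counts beside these shares. All values are mean deviations of the log2 ratio over the tumours. The scanners did not overlap in 15 of the 58 genes chosen for naming; among them Hoxb7 was at 0.12 and Slfn2 at -0.14 without slide 1, both under the size threshold.

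In the growth signalling list 7 of 35 measured genes were higher and 2 lower, with a median of 0.01. The largest were Wnt9b (0.50 ± 0.07) and Wnt9a (0.39 ± 0.07), which encode secreted Wnt ligands, Ppm1d (0.35 ± 0.12), which encodes a phosphatase that dampens p53 signalling, and Hgs (-0.38 ± 0.20), which sorts receptors into endosomes (SD, n = 11 each). Among tumour suppressors 2 of 22 were higher and 3 lower, with a median of -0.02. Among those called were Llgl1 (-0.38 ± 0.24), a cell polarity gene, Flcn (-0.32 ± 0.12), which encodes folliculin, and Trp53, given above.

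In the mitosis and replication list 4 of 22 were higher and 2 lower, with a median of 0.01. Nek8 (0.53 ± 0.10), a kinase of the cilium, Kif2b (0.44 ± 0.12), a mitotic kinesin, Rpa1 (0.28 ± 0.05), which binds single-stranded DNA, and Pttg1 (-0.39 ± 0.08), which encodes securin, were the largest. In the Schwann cell and myelin list 4 of 20 were higher and 3 lower, with a median of -0.05. Nlgn2 (-0.78 ± 0.14), a synaptic adhesion protein, Cnp (-0.55 ± 0.19, n = 10), an enzyme of myelinating glia, Vtn (0.38 ± 0.09), which encodes vitronectin, and Itgb4 (0.30 ± 0.39), a laminin receptor subunit, were the largest. Neither interferon-inducible GTPase measured (Irgm1 at 0.12 and Igtp at -0.12) was called.

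Among clusters of related genes the directions were mixed. Of 20 keratin genes 8 were higher and 2 lower, with a median of 0.16; Krt31 (0.72 ± 0.23), Krt13 (0.66 ± 0.08), Krt9 (0.53 ± 0.08) and Krt42 (0.46 ± 0.12) were the largest. Of 33 olfactory receptor genes 7 were higher and 5 lower, from Olfr397 (0.53 ± 0.12) to Olfr313 (-0.41 ± 0.18), with Olfr463 (0.46 ± 0.16) and Olfr30 (-0.39 ± 0.12) between them; Olfr463 was at -0.34 after normexp background correction. In the Hoxb cluster 2 of 8 genes were higher and 1 lower, with neighbours in opposite directions: Hoxb5 was at 0.34 ± 0.11, Hoxb6 at -0.39 ± 0.20 and Hoxb7 at 0.22 ± 0.15.

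Of 11 chemokine genes 3 were higher and 1 lower, with Ccl6 (0.36 ± 0.16), Ccl8 (0.30 ± 0.08) and Ccl12 (0.22 ± 0.07) above the median and Ccl2 (-0.35 ± 0.12) below it. Of 8 Schlafen genes 3 were lower and 1 higher: Slfn8 (-1.07 ± 0.13) was the lowest gene of the chromosome, in 11 of 11 tumours from -1.28 in A382 to -0.88 in 231 Trig, while its neighbours Slfn9 (-0.31 ± 0.04), Slfn2 (-0.23 ± 0.15) and Slfn4 (0.27 ± 0.11) were closer to the median. A probe with no gene name at 82808480, near the Slfn8 probe (82831788), was also low, at -1.13 ± 0.25. The reference channel was high at both, at 3.53 and 2.62. Of 8 Cd300 genes 3 were higher and 2 lower, among them Cd300c2 (0.41 ± 0.08), Cd300ld (0.32 ± 0.17, but -0.57 after normexp), Cd300lb (-0.29 ± 0.21) and Cd300c (0.28 ± 0.08). Of 7 myosin heavy chain genes Myh10 (-0.62 ± 0.11) was the only one called, and Hba-x, a globin gene of the embryo, was at 0.50 ± 0.10. The SDs are over 11 tumours, or 10 for Cd300c.

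The highest named gene on the chromosome was AK155119, whose probes are shown above. Its 3 probes had mean deviations of 2.79 ± 0.80, 1.91 ± 0.67 and 1.63 ± 0.15 (SD, n = 11), and its gene mean was 2.11 ± 0.47 (limma adjusted p 1.79e-08), from 1.67 in B76 to 2.91 in A202. Slide 1 lay between 2.41 and 2.91 and the other tumours between 1.67 and 1.93, without overlap. The reference channel carried the difference: the 3 probes were at -3.79, -2.91 and -1.53 relative to the chromosome median there, and at -0.99, -1.07 and 0.11 in the tumour channel. One reference array was not well above background at the second probe; the others were. The neighbouring probes did not share the shift. The St6galnac2 probe before it (116555341) was at -0.59 and the St6galnac1 probe after it (116635256) at 0.16. The segment of 5 probes found in 10 tumours, with means of 1.04 to 1.78, holds these 3 probes and the next ones.

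A single probe with no gene name at 42187382 was higher still, at 3.45 ± 0.74 (SD, n = 11, limma adjusted p 1.05e-08), from 1.36 in 231 Trig to 4.02 in B96. One of the 12 reference arrays was not well above background at this probe, so its ratio there has no exact size. There too the reference was low, at -3.66, while 10 tumours lay between 0.03 and 0.58 in the tumour channel and 231 Trig was at -4.37, with -5.70 in its reference channel. AK013397 (28587445) was at 1.52 ± 0.24 and AK044443 (72030156) at 0.92 ± 0.25. AK086504 (83598563) was at 1.14 ± 0.26, and at -0.14 after normexp. Mpp3, which encodes a scaffold protein, was at 0.95 ± 0.22 as the mean of probes at 2.14 (1 reference array not well above background) and -0.24, and turned to -0.24 when only probes well above background were used. At the other end, Slfn8 was followed by AF045252 (-1.03 ± 0.20), AF036164 (-0.93 ± 0.51, n = 10), Bcl6b (-0.87 ± 0.14), a transcriptional repressor, and Eif5a (-0.87 ± 0.22), a translation factor, each read by 1 probe.

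The strain backgrounds differed at single probes. In the ratio, limma called 10 of 2978 probes on chromosome 11 between the mixed and the C57BL/6J tumours, or 0.336%, against 0.135% of autosomal probes, with 6 higher in the mixed tumours (background 0.0933%) and 4 lower (background 0.0418%); 188 had an unadjusted p under 0.05. These 10 probes were called on the same ratios, so a lack of overlap at them is not separate support. The groups did not overlap in the ratio at 10 of 10. In the tumour channel, which is part of that ratio, they did not overlap at 9 of 10. In the tumour channel, limma called 0 of 2978 probes (background 0.0%), with 121 at an unadjusted p under 0.05, and 9 when slide 1 was left out. The reference channel gave 0 (background 0.0%), with 21 at an unadjusted p under 0.05. Leaving out single tumours moved the ratio's count between 1 (without B96 or B76) and 15; it was 6 without A18, 4 without B86 and 3 without B91.

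The largest difference was at the Tom1l1 probe (90535960). Tom1l1 encodes an adaptor that binds Src family kinases. The mixed tumours had a mean deviation of -0.17 and the C57BL/6J tumours -2.61, a difference of 2.44 (limma adjusted p 0.00523, called in 18 of 18 alternatives). In the tumour channel the C57BL/6J values were -4.11 (B86), -3.07 (B76), -2.53 (B96) and -1.83 (B91), and the mixed ones ran from -0.98 (A394) to 0.39 (A202). The reference channel, labelled C57BL/6J, lay between -0.86 and 0.39, over the range of the mixed tumours.

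The other probes that were higher in the mixed tumours were those of AY603754 (difference 0.89), BC067002 (0.83), Myh1 (0.80), a myosin of fast muscle, Plxdc1 (0.66), a transmembrane receptor, and Krt31 (0.41), with limma adjusted p of 0.0186 to 0.0300. Those lower in the mixed tumours were a probe with no gene name at 30405406 (-2.01) and those of AK036198 (-0.58), Zfp652 (-0.50), a zinc finger repressor, and Efemp1 (-0.45), a matrix protein, with limma adjusted p of 0.0317 to 0.0433. At 30405406 1 reference array was not well above background, and the ratio of B86, 2.54, went with a reference of -5.86 and a tumour channel of -3.34, the lowest of all tumours. There the strain groups overlapped in the tumour channel, so the size of this difference is not exact. The mixed tumours had the ratio closer to the chromosome median at 6 of these 10 probes and the C57BL/6J tumours at 4. On the other autosomes the counts were 25 and 20 of 45. The cause was not tested.

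A few probes spread widely between tumours. With an SD over tumours of at least 1.0 log2 in the ratio there were 8 probes on chromosome 11, or 0.269%, against 0.263% of all autosomal probes. They include the Tom1l1 probe and the one at 30405406, which were called between the strain groups; the other 6 were not. At the Acyp2 probe (30435608) the tumours fell at 3 levels in the tumour channel. The C57BL/6J tumours lay between 0.07 and 0.23, 231 Trig, A394 and A18 between -0.71 and -0.52, and A390, A292, A382 and A202 between -3.10 and -2.79. The reference was at -3.19 to -2.42, as low as the last group. Acyp2 encodes a small acylphosphatase. A second Acyp2 probe (30482545) had deviations of -0.28 to 0.20 in the ratio. In the tumour channel that probe ran from -0.70 (B91) to 1.07 (A202), with slide 1 between 0.71 and 1.07 and the other tumours between -0.70 and -0.15.

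The Cnrip1 probe (16961538) also fell at separate levels. Cnrip1 encodes a protein that binds cannabinoid receptor 1. The C57BL/6J tumours lay between 0.79 and 0.92 in the tumour channel, A394 at 0.85, A292 at 0.12, 231 Trig at -0.21 and A18 at -0.54, and A390, A382 and A202 at -2.51, -3.04 and -4.31. The reference lay between -3.23 and -1.45. The other Cnrip1 probe (16953043) was between 0.17 and 0.63 in every tumour.

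At Dppa1, a gene of pluripotent cells, the C57BL/6J tumours were at 0.18 to 0.30 in the tumour channel and the mixed ones at -3.21 (A202) to -0.33 (A394), with the reference at -0.35 to -0.06. The remaining probes of this kind were in Tbc1d16, Itgb4 and Endov, where the lowest values were those of A18 or 231 Trig on slide 1.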

How the data were processed

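DNA of 11 tumours was measured on 12 Agilent arrays of 45- to 60-base probes. Per the file headers, the deposited values are log10 ratios of tumour over reference and the intensity of each channel, with background subtracted and dyes normalised linearly by the scanner software; Feature Extraction 9.5 and the build mm9 are given in the submitters' processing notes. The series table held the same log10 ratios (largest difference 0).

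From these, ratios were turned to log2, control spots dropped, marked spots set to missing and spots of a probe averaged. Each array was centred on its autosomal median, and channels were adjusted for GC content in bins of 1% with at least 100 probes, from autosomes other than 11. Gene names came from the files, updated through RefSeq accessions (2208 of 2230 chromosome 11 probes matched, 313 names changed). Features needed values in 70% of tumours. Tests used limma 3.58.1 in R 4.3.3, on the ratios and, for the strain comparison, on each channel; exact permutation tests and segmentation used Python 3.11.15, numpy 2.4.6, pandas 2.3.3 and numba 0.67.0. In segmentation, lone outlying probes were pulled in to 3 noise SD from a 5-probe running median. The limma fits and the segmentation were tested on simulated data.

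Members, lists and tests were chosen with earlier results of these data known. Named genes were 10 core genes, up to 4 called members of each list with the largest mean, the 5 highest and 5 lowest called genes, genes in the described segments, and called strain probes; the probes with an SD of at least 1.0 were chosen after their values were seen. Alternatives were leaving out each tumour or slide 1, slide as a block, a filter on dim probes, marked spots kept, normexp with an offset of 50, single passages of A382, no GC adjustment, other windows and other segmentation settings. Profiles relative to the other tumours of a scanner, the spread of probes and the A18 and A382 comparisons were added after the data were seen. The driver of the transgene and 1 gene that the naming rule selected are not reported here.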

Additional observations from a re-analysis of the deposited data

Results flagged for a closer look

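In 30 sets of values of 1 strain group, 6 had a sample far from the others of its group. Some of these sets share probes or a stretch chosen from A18, so no chance rate is set beside this count. A18 stood apart among the mixed tumours in 3 of them. Its share of probes in segments at least 0.2 from the median was 3.04%, with the nearest tumour at 0.172%. Its deviation over the stretch at 68801338 to 70129155 was -0.46, with the nearest at -0.08, and its Trp53 value was -0.32, with the nearest at 0.33. These values share probes and are not independent. The limits of the stretch were set from A18, so its distance from the other tumours there follows in part from that choice.

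Among the C57BL/6J tumours, B86 stood apart in its reference channel median (-0.58, nearest -0.52) and at AK155119 (2.76, nearest 1.80); it was the only array of this group on slide 1, and the part of the scanner was not tested. B76 stood apart in the share of probes in such segments, at 3.12% against 0.169%. That share is its last segment of 93 probes. In the window at 120 to 125 Mb, A382 (-0.24) and B91 (-0.22) were lower than B76 (-0.20). Relative to the other tumours of its scanner, the ratio of B76 had no break.

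The strain groups differed at 10 probes by limma with Benjamini-Hochberg adjustment, given as mixed minus C57BL/6J in log2. The differences were 2.44 at Tom1l1, 0.89 at AY603754, 0.83 at BC067002, 0.80 at Myh1, 0.66 at Plxdc1 and 0.41 at Krt31. They were -0.45 at Efemp1, -0.50 at Zfp652, -0.58 at AK036198 and -2.01 at the probe with no gene name at 30405406, where 1 reference array was not well above background.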

How the results depend on the processing

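Without slide 1, 1 window was called and the tumour channel median was 0.13 (adjusted p = 0.173 by exact permutation), and 9 strain probes were called in the tumour channel. Windows of 2.5 Mb gave 1 call, and the running median of 5 gave 523 probe calls. The filter on dim probes and the lack of GC adjustment each gave 1 strain probe in the tumour channel, and leaving out single tumours gave 0 to 2 there and 1 to 15 in the ratio. Normexp gave 23 strain probes in the ratio. The reference median was -0.48 without GC adjustment and -0.71 with normexp. The 26 breaks became 52 with a penalty of 20, 8 with 80, 15 with at least 10 probes per segment and 5 with normexp; relative to the other tumours of a scanner they were 6 in the ratio, 9 in the tumour channel and 4 in the reference. A threshold of 0.1 put 5.58% of probes in deviating segments. The A382 step was 0.0038 in the reference channel. The difference in spread was 0.0757 in C57BL/6J tumours alone. Among named genes, normexp turned AK086504 to -0.14, Mpp3 to -0.20, Olfr463 to -0.34 and Cd300ld to -0.57, and the filter on dim probes turned Mpp3 to -0.24; the causes were not tested. Of 58 named genes, 43 kept their call under all 18 alternatives. Calls were lost in 1 alternative at Pmp22 (-0.18), Olfr397 (0.12), Ccl6 (0.02), Cd300c2 (0.08), Ccl12 (0.16), Itgb4 (0.19) and AK044443 (limma adjusted p 0.0656). They were lost in 3 at Hoxb7 and in 2 at Slfn2. Erbb2 and Top2a, not called above, were called lower in 2 and in 1 alternatives, Top2a at -0.36. The means of Egfr and Top2a turned above 0 without slide 1. Those of Nf2, Suz12 and Brca1, also not called, changed sign with normexp. Of 10 strain probes, 1 kept its call (Tom1l1).

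No paired analysis was possible because the labels give the strain groups no replicate numbers. Signal over background limited few probes, since 2935 of 2979 were well above it on all arrays. With 1 array for most tumours, technical and biological spread cannot be told apart, and the level of a probe in the reference has no check in DNA of another source.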
